A study of Mus musculus with 6 samples.

Results

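Hspb7 and Actb are measured here through 2 mRNA probes of a one-colour circular RNA array, A_51_P346445 for Hspb7 and A_51_P173760 for Actb. They are 2 of 50 mRNA probes and 2 of 14286 mRNA and circRNA probes. Both were taken by probe name, but they were chosen by measured values, since their signal, rank and difference between groups in these same arrays were already known. For this reason their levels and differences are given as a description with errors and without a p-value. The RNA came from the hearts of wild-type male mice aged 10 weeks, 3 after a sham operation and 3 after ligation of the left anterior descending coronary artery to cause a myocardial infarction (MI), with 1 array per heart. The labels disagree on the time after ligation, 1 day in the protocol and 4 weeks in the source name of the MI samples, so no time is given to the comparison. All 6 RNA samples, sham and MI alike, were treated with RNase R before labelling with Cy3.

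Hspb7 encodes a small heat shock protein of heart and skeletal muscle, one of the chaperones that hold unfolding proteins in a soluble state and that protect the contractile apparatus. Actb encodes cytoplasmic beta-actin, a filament protein of nearly every cell type and a common reference gene, whereas the main actin of adult heart muscle is the product of another gene, Actc1. RNase R is an exonuclease that digests linear RNA and spares most circular RNA. A probe signal for a linear mRNA in such RNA is a reading of what remained and was labelled, not a level of the mRNA in the tissue. In whole heart RNA, fewer cells of a type and less RNA per cell cannot be told apart.

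The Hspb7 probe was bright on every array. The geometric mean of its spot intensities was 5162, 5442 and 8003 in Sham 1, Sham 2 and Sham 3, and 3797, 6039 and 4745 in MI 1, MI 2 and MI 3. Sham 3 was the highest and MI 1 the lowest, and the groups overlapped in these unscaled intensities. All 10 Hspb7 spots on each array were well above background and none was saturated. The raw median spot signal was 232.5 to 597 times the local background. By mean scaled level it stood first among the 50 mRNA probes, and it was the brightest of them on each of the 6 arrays.

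The Actb probe was far dimmer and still above background at every spot. Its geometric mean intensity was 98.3, 148 and 196 in Sham 1, Sham 2 and Sham 3, and 92.3, 144 and 120 in MI 1, MI 2 and MI 3. Again Sham 3 was the highest and MI 1 the lowest, and the groups overlapped. The raw median signal was 7.67 to 17.9 times the local background. Different probes bind with different efficiency, so the 2 intensities do not rank the amounts of the 2 RNAs.

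**Figure D1:**
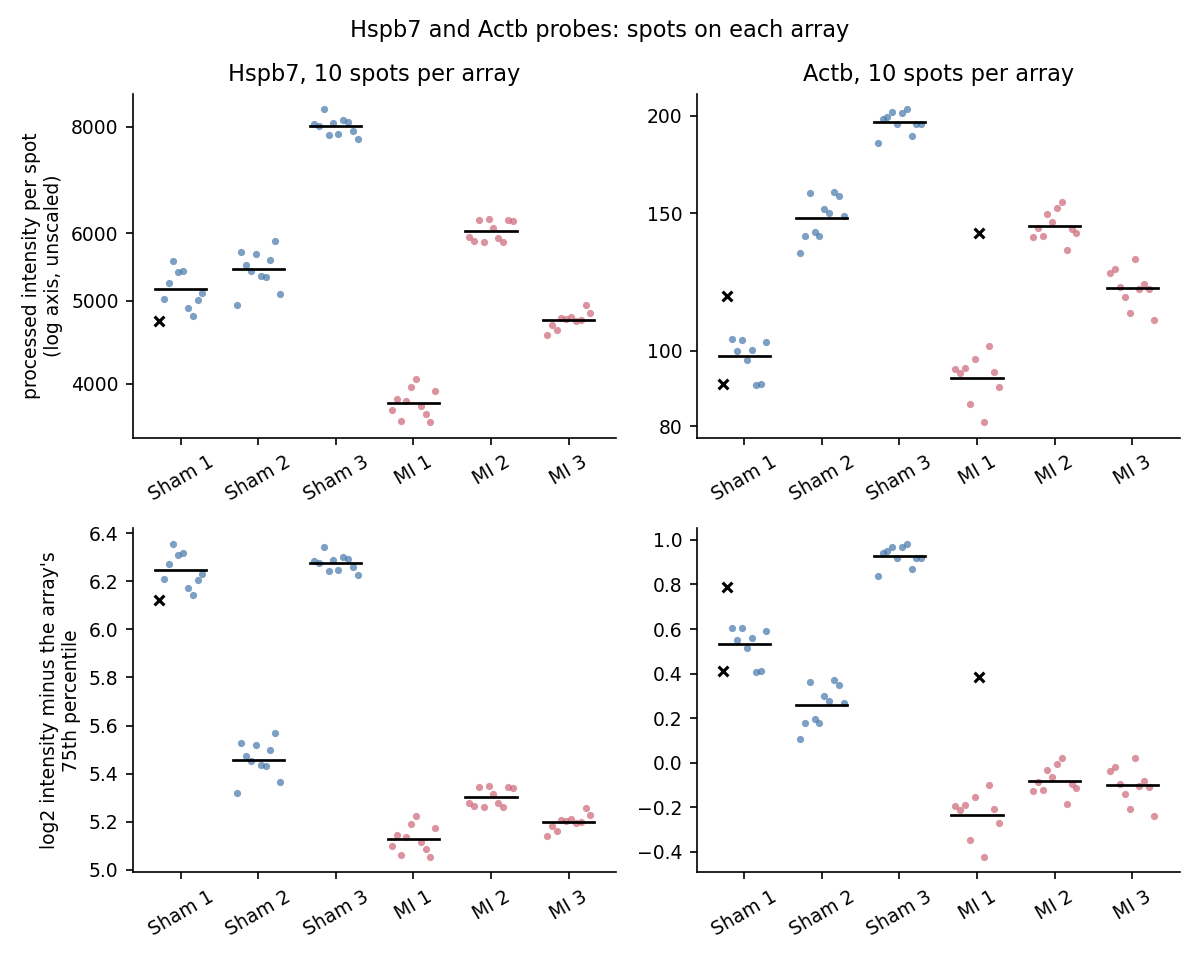
Each point is 1 of 10 spots per array for Hspb7 (left) and Actb (right), as processed intensity on a log axis (top) and as log2 intensity minus the array's 75th percentile (bottom). Black lines are the means of the spots used, crosses are spots flagged as outliers and left out, blue is sham and red is MI. The groups overlap in the top panels and the array means do not in the bottom ones, with Sham 2 the lowest sham array for both probes.

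The 10 spots of a probe are technical repeats on 1 array, and they lay close together. On Hspb7, the lowest, median and highest unflagged spots were 4802, 5106 and 5570 in Sham 1 and 3605, 3792 and 4051 in MI 1. On Actb, they were 90.3, 100.04 and 104 in Sham 1 and 81.0, 93.9 and 101 in MI 1. The highest spot was 1.06 to 1.19 times the lowest for Hspb7 and 1.10 to 1.25 times for Actb over the 6 arrays. The scanner software flagged 1 of the 60 Hspb7 spots and 3 of the 60 Actb spots as outliers. The flagged Hspb7 spot, at 4734, was in Sham 1. The flagged Actb spots were at 90.6 and 118 in Sham 1 and at 142 in MI 1.

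The spread between spots did not set the precision of the group means. The SD of the log2 spots averaged 0.052 for Hspb7, the lowest among the 35 mRNA probes detected well above background on each of the 6 arrays. It averaged 0.076 for Actb, the sixth lowest, beside a median of 0.10 over the 35. The SD between arrays within a group, on the scaled log2 values, was 0.33 for Hspb7 and 0.24 for Actb. That is 20.5 times the standard error of a mean of 10 spots for Hspb7 and 10.2 times for Actb. Adding spots would thus have changed the error of a group mean little.

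Spots at fixed positions kept no common order across arrays. For Hspb7 the correlation of the 10 spot deviations between 2 arrays had a median of 0.06 over the 15 pairs of arrays, with a range of -0.62 to 0.50. For Actb the median was 0.0023 and the range -0.85 to 0.78. The spots of a pair share their positions and their printing, and 10 spots give little precision, so these are descriptions.

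Spot spread and local background overlapped between the groups for both probes. The spot SD of Hspb7 was 0.061 ± 0.023 in sham, against 0.043 ± 0.012 after MI (SD, n = 3). The difference of -0.018 went to -0.031 without Sham 3 and to -0.011 without Sham 2. For Actb the spot SD was 0.072 ± 0.023 and 0.080 ± 0.019 (SD, n = 3). The local background around the Hspb7 spots was 13.9 ± 1.38 in sham, against 14.5 ± 0.50 after MI, and around the Actb spots it was 13.5 ± 1.80 and 14.2 ± 0.76. No p-value is given for these, since the spot spread was part of how the probes were chosen and 3 arrays against 3 cannot give a p under 0.1 in an exact permutation test.

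The question of the series is which RNAs differ between infarcted and sham hearts, and each array was first set to its own 75th percentile of log2 intensity over all non-control probes. That percentile corresponded to intensities of 68.0, 124 and 103 in Sham 1, Sham 2 and Sham 3, and 109, 153 and 129 in MI 1, MI 2 and MI 3. Its mean was 0.43 higher in MI on the log2 scale, and the groups overlapped. The scaled value of a probe is thus its place relative to the rest of its array.

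Relative to the rest of the array, Hspb7 was lower in MI. Its scaled log2 level was 6.25, 5.46 and 6.28 in Sham 1, Sham 2 and Sham 3. It was 5.13, 5.30 and 5.20 in MI 1, MI 2 and MI 3. All 3 MI arrays lay below all 3 sham arrays, with Sham 2 only a little above MI 2. The group means were 5.99 ± 0.46 in sham and 5.21 ± 0.09 in MI (SD, n = 3). The difference was -0.78 on the log2 scale with a standard error (SE) of 0.28 from a limma fit over all tested probes, which is 1.72-fold lower in MI. As background, 29.9% of the 11367 tested probes that had a value on each array were lower in MI without overlap. So were 19.5% of the 41 tested mRNA probes, Hspb7 and Actb included, and 6 of the 39 with these left out. Since the choice of Hspb7 and Actb was made with this contrast known, nothing is read from their place in these shares.

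Actb showed the same pattern at its own level. Its scaled log2 level was 0.53, 0.26 and 0.93 in Sham 1, Sham 2 and Sham 3. It was -0.23, -0.08 and -0.10 in MI 1, MI 2 and MI 3. The groups did not overlap, and Sham 2 was again the lowest sham array. The sham mean was 0.57 ± 0.34 and the MI mean -0.14 ± 0.08 (SD, n = 3). They differed by -0.71 (SE 0.25), so Actb was 1.64-fold lower in MI. The sham arrays were more spread than the MI arrays for both probes.

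Ranks within an array do not depend on a scaling that shifts a whole array, and both probes ranked lower in MI. The ranks come from the same intensities and were known when the probes were chosen. They are thus a description and not a separate check, and they also depend on how the other probes differed. Counted from the brightest of 14190 to 14322 ranked probes, Hspb7 was at rank 116, 141 and 103 in Sham 1, Sham 2 and Sham 3. In MI 1, MI 2 and MI 3 it was at rank 327, 296 and 310. The mean rank went from 120.0 ± 19.3 to 311 ± 15.5 (SD, n = 3), so that more circRNA and other probes stood above it in every MI array than in any sham array. Actb was at rank 2809, 3174 and 2304 in sham and at 3862, 3683 and 3740 in MI, and these also did not overlap. Among the 50 mRNA probes, the Actb probe stood at place 14, 18 and 13 in the sham arrays and 24, 25 and 23 in the MI arrays. The share of ranked probes dimmer than Actb was 77.8% to 83.9% in sham and 72.8% to 74.3% in MI.

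The size of both differences depended on how the arrays were scaled, and the sign did not. With no scaling, Hspb7 differed by -0.35 (SE 0.41) and Actb by -0.28 (SE 0.42), with overlapping groups. Quantile normalization, which forces the same set of intensities on each array, moved Hspb7 to -1.41 (SE 0.22) and left Actb at -0.75 (SE 0.26). Subtracting the array median in place of the 75th percentile gave -0.47 (SE 0.29) and -0.40 (SE 0.26), and the Hspb7 groups then overlapped. With the median of the 48 other mRNA probes subtracted, a setting chosen after the data were seen, the differences were -1.10 (SE 0.47) and -1.02 (SE 0.42), and the groups overlapped for both probes. With no scaling, quantile normalization and the array median, the median difference of all tested probes was 0.53, 0.20 and 0.41 in that order, beside 0.10 in the main setting. Both probes lay below that median under each of these 3 settings.

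**Figure D2:**
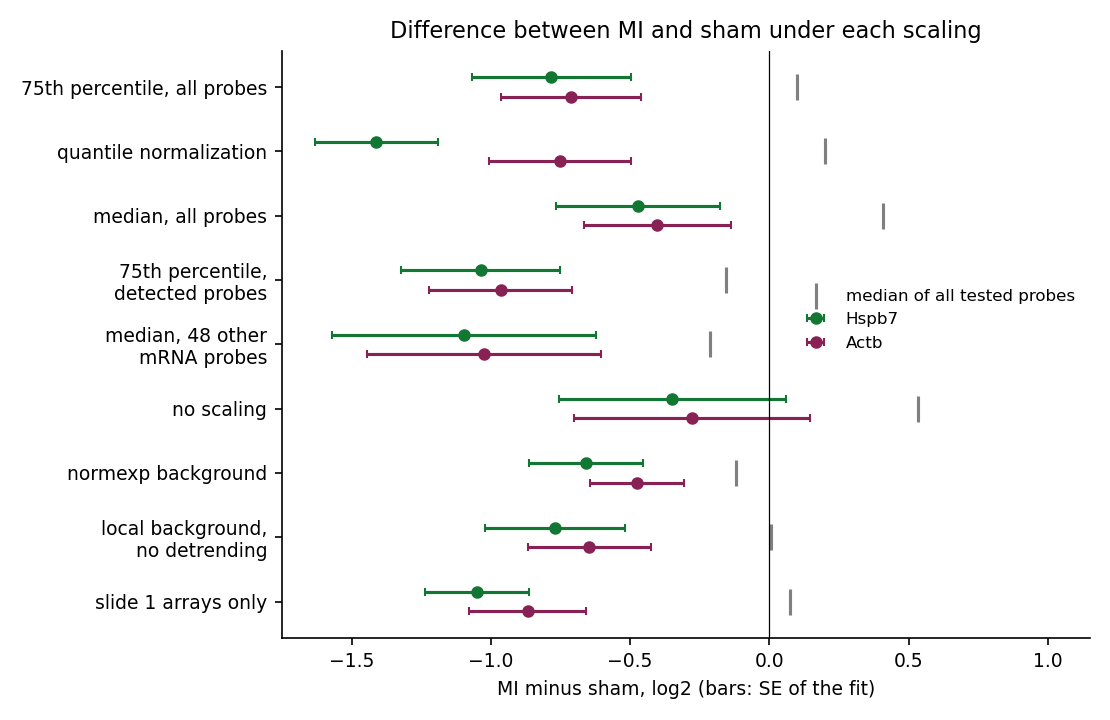
Points are the MI minus sham difference on the log2 scale for Hspb7 (green) and Actb (purple) under 9 ways of scaling or background handling, with the SE of the fit as bars, and grey ticks mark the median of all tested probes. All 18 points lie below 0, from -1.41 to -0.28, and each lies to the left of its grey tick.

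The scan identifier was the only batch read from the file headers, and arrays that share 1 are called a slide here. Sham 2 had an identifier of its own, and the other 5 arrays share 1. Whether Sham 2 also lay on another physical slide was not checked. Within that slide, which is the same as leaving out Sham 2, the Hspb7 difference was -1.05 (SE 0.19) and the Actb difference -0.87 (SE 0.21). Both probes were lower in the 3 MI arrays than in the 2 sham arrays of that slide without overlap, as were 38.6% of the tested probes. Sham 2 also differed from the other sham arrays over all tested probes. Its correlations across probes were 0.91 and 0.90 with them, and they had 0.98 with each other. With MI 1, MI 2 and MI 3, Sham 2 had 0.87, 0.89 and 0.91, whereas Sham 1 and Sham 3 had 0.82 to 0.87. A difference of slide or scan and a difference between mice cannot be told apart for Sham 2.

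The ratio of Hspb7 to Actb is free of any scaling that shifts a whole array, and with such a scaling its groups overlapped. The log2 level of Hspb7 minus that of Actb was 5.71, 5.20 and 5.35 in Sham 1, Sham 2 and Sham 3. In MI 1, MI 2 and MI 3 it was 5.36, 5.39 and 5.30. The MI values lay inside the sham range. The means were 5.42 ± 0.26 and 5.35 ± 0.04 (SD, n = 3). They differed by -0.07, less than the SD of the sham arrays, and by 0.08 in the other direction without Sham 1. Quantile normalization shifts bright and dim probes by different amounts, and there the outcome was another. The log2 level of Hspb7 minus that of Actb was then 5.74, 5.79 and 5.42 in Sham 1, Sham 2 and Sham 3, and 4.97, 5.03 and 4.98 in MI 1, MI 2 and MI 3. All 3 MI arrays lay below all 3 sham arrays, and the difference was -0.66. Whether Hspb7 differed from Actb in its change thus depended on the normalization.

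Against the other mRNA probes, the ratios of Hspb7 and of Actb were lower in MI more often than higher. Of the 34 other mRNA probes well above background on all arrays, 21 had a ratio of Hspb7 to the probe that was lower in MI without overlap, 4 had one that was higher, and 9 overlapped. For Actb the counts were 22 lower, 3 higher and 9 overlapping. The 4 probes for which the ratio was higher in MI were those of Ppara, the nuclear receptor of fatty acid oxidation, of the histocompatibility gene H2-Q7, of the membrane protein gene Lhfp, and the unnamed probe A_51_P237746. For Actb they were Ppara, H2-Q7 and Lhfp. Over the 34 probes the median change of the log2 ratio was -1.54 for Hspb7 and -1.47 for Actb. These 34 ratios share 1 numerator, so they are not independent of each other. The counts also follow in part from the known differences of Hspb7 and Actb, as 30 of the 41 tested mRNA probes were higher in MI. No matching counts were made for other probes, so nothing more is read from them.

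**Figure D3:**
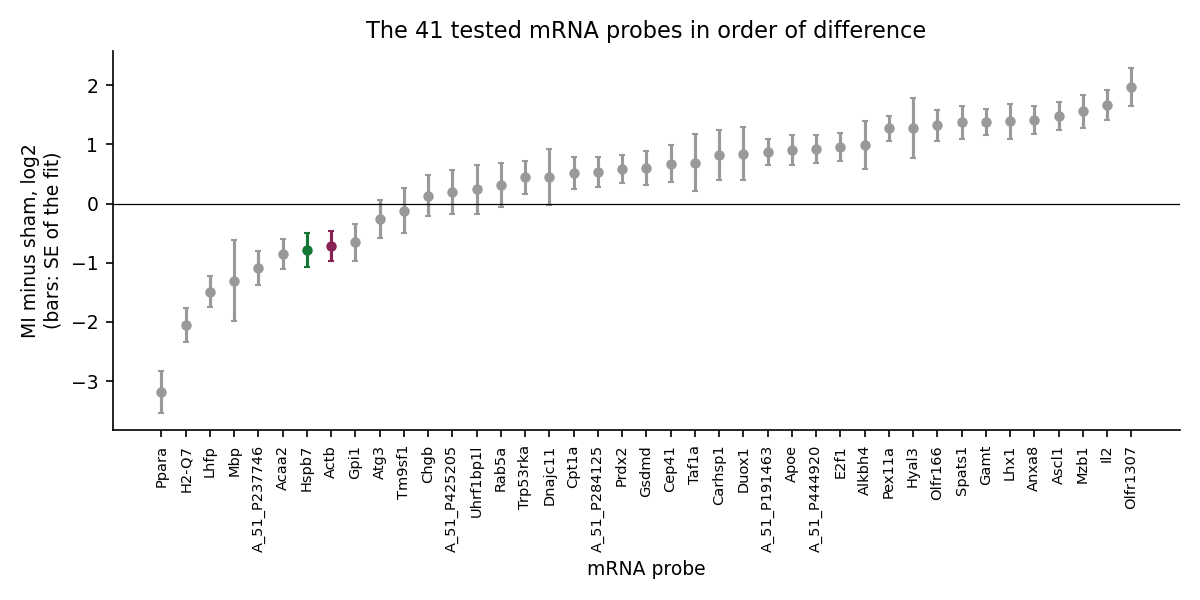
The 41 tested mRNA probes in order of their MI minus sham difference on the log2 scale, with the SE of the fit as bars, Hspb7 in green and Actb in purple. Hspb7 is seventh and Actb eighth from the lowest, at -0.78 and -0.71, and 30 of the 41 probes are above 0.

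The brightest probes had the highest median difference between MI and sham, while Hspb7, itself among the brightest, was lower in MI. The 11367 tested probes were ordered by mean level and divided into 10 parts of nearly equal size (deciles). Hspb7 was in the brightest decile and Actb in decile 8, counted from the dimmest. The median difference in the brightest decile was 1.09, with quartiles of 0.28 and 1.49, and 9.59% of its 1137 probes were lower in MI without overlap. Of that decile, 10.0% of the probes had a lower difference than Hspb7. In the decile of Actb the median was 0.43, with quartiles of -0.69 and 1.03, and 24.8% of the probes had a lower difference than Actb. Since both differences were known when the probes were chosen, nothing is read from their place in the deciles.

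**Figure D4:**
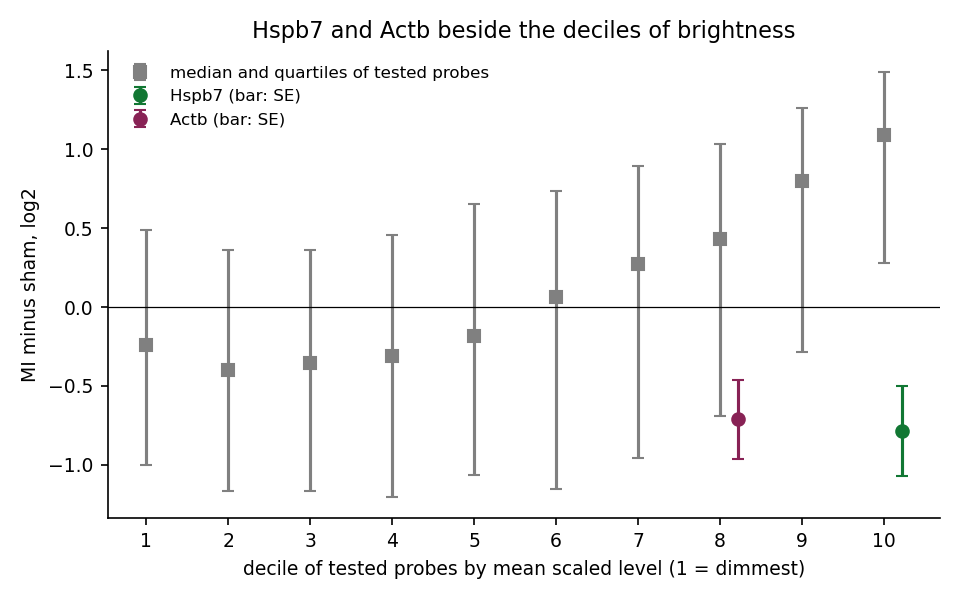
Grey squares are the median MI minus sham difference on the log2 scale of each decile of tested probes by mean level, with the quartiles as bars. Hspb7 at -0.78 lies below the lower quartile of 0.28 in the brightest decile, and Actb at -0.71 lies near the lower quartile of -0.69 in its decile (SE as bars).

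The pattern of Hspb7 over the arrays was set against 30 other named mRNA probes, after each probe was centred on its own mean of 6 arrays. The nearest was Acaa2, a thiolase of mitochondrial beta-oxidation, at a root mean square difference of 0.13 on the log2 scale. Actb followed at 0.16, then Lhfp at 0.41 and Atg3, an enzyme of autophagosome formation, at 0.44. The median over the 30 probes was 1.06. Acaa2 was at 1.71, 1.09 and 1.60 in Sham 1, Sham 2 and Sham 3 and at 0.70, 0.61 and 0.54 in MI 1, MI 2 and MI 3, with the same low Sham 2. The Hspb7 to Acaa2 ratio differed by 0.07 between groups, beside a within-group SD of 0.15, and the groups overlapped.

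For Actb the nearest was Hspb7 at 0.16, then Acaa2 at 0.19, Lhfp at 0.41 and Tm9sf1, a membrane protein gene, also at 0.41, beside a median of 0.97. Hspb7, Actb and Acaa2 thus lay within 0.19 of each other. Among mRNA probes well above background on all 6 arrays, 4 had no gene name. Of these, A_51_P237746 was also near, at 0.20 from Hspb7 and 0.27 from Actb, which is closer than Lhfp. Tm9sf1 differed by -0.12 (SE 0.38) and Atg3 by -0.25 (SE 0.32), and the groups overlapped for both. These distances come from the same 6 arrays and include the shift between groups.

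Few genes related to Hspb7 or Actb could be read. Of the 12 small heat shock proteins and cochaperones listed, Hspb7 alone was on a named mRNA probe, and of 21 actins and actin-binding proteins Actb alone was. None of 21 other heat shock proteins, 10 genes of the serum response factor pathway or 18 common reference genes was on one, so Actb was the only usual reference gene. None of the 13 cardiomyocyte markers, the 7 of fibroblasts, the 4 of endothelium, the 4 of smooth muscle, the 6 of macrophages, the 4 of neutrophils or the 3 of erythroid cells was on one either. The tissue label therefore had no marker check, and the cell composition of the samples could not be read. Of the 4 T cell markers only Il2 was on a probe, at 1.67 (SE 0.26), and of the 5 B cell markers only Mzb1, at 1.56 (SE 0.27). Of the 3 Schwann cell and neuron markers only Mbp was, at -1.30 (SE 0.68). The Mbp difference came mostly from Sham 3, at -0.82, beside -3.59 in Sham 1, -3.41 in Sham 2 and -4.00 to -3.80 in MI. Mbp was above background on 5 arrays. The part of Il2, Mzb1 and Mbp in the values of Hspb7 and Actb was not tested.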

How the data were processed

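Per the file headers, the authors obtained the deposited intensity of each spot from Agilent Feature Extraction, version 11.0.1.1, as background-subtracted and detrended values with no scaling between arrays. The array design names mm9, per the file headers. The submitters' processing notes also name limma, with no role given. The deposited value table holds 14225 circRNA probes and neither Hspb7 nor Actb, so it was not used. Depth has no meaning for arrays, and 3 per group limit the precision. The design text gives 3 mice per group.

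Outlier spots were left out, the log2 intensity of a probe's spots was averaged, and the array's 75th percentile over 14330 non-control probes was subtracted. A probe was tested if well above background on at least 3 arrays (for 10-spot probes, by over 50% of spots). MI was fitted against sham with limma 3.58.1 in R 4.3.3 on 11556 probes, of which 2 could not be fitted. A log2 difference is MI minus sham. Of 50 mRNA probes, 44 were named by accession through a RefSeq table of GRCm38.p6, used for names alone. The fit was also run on simulated data with independent noise of the same variance for all probes and arrays. The simulation had no slide difference and no wider spread in sham, so it does not check the fit for these arrays. Figures used matplotlib 3.10.9 in Python 3.11.15.

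The members, gene lists and tests were chosen with earlier results of these data known. Named genes are Hspb7 and Actb, the 4 named mRNA probes nearest to each, and list members on a probe. Ppara, H2-Q7 and A_51_P237746 were named after their values were seen. Alternatives covered scaling, background, spot summary, flags, replicate block, slide and leaving out each array.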

Additional observations from a re-analysis of the deposited data

How the results depend on the processing

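Of 19 alternatives for each probe, none changed the sign of the Hspb7 difference or of the Actb difference. These were not all separate checks. Slide as a block, the shared slide alone and leaving out Sham 2 gave the same fit, and the replicate block could not change a difference. Hspb7 moved by more than the SD between arrays under quantile normalization (-1.41) and no scaling (-0.35). Actb did so under median scaling (-0.40), the 75th percentile over probes above background on all arrays (-0.97), no scaling (-0.28) and the median of the 48 other mRNA probes (-1.02), a setting chosen after seeing the data, as was local background subtraction with no detrending. Leaving out 1 array at a time gave -1.05 to -0.64 for Hspb7 and -0.87 to -0.53 for Actb, with the first of each pair without Sham 2, and -0.18 to 0.075 for the Hspb7 to Actb difference, which was above 0 without Sham 1. Quantile normalization, added for this difference after seeing the data, moved it from -0.07 to -0.66. The Hspb7 spot spread difference ran from -0.031 to -0.011. That of Actb, 0.0084, turned to -0.020 with the interquartile range and ran from -0.0047 to 0.018 over single arrays left out. The cause of these moves was not tested.

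With the replicate number as a block, the differences were the same, -0.78 (SE 0.31) and -0.71 (SE 0.28), and 5267 tested probes passed the threshold in place of 5838. Same-numbered arrays deviated from their group means with correlations of -0.09, 0.06 and 0.14, beside -0.23 to 0.22 for arrays of different number. Not every sample correlated best with its own number. No pairing by number was seen, but 3 arrays per group cannot settle it. Over single arrays left out, 4178 to 7923 probes passed and 7278 to 9256 had groups without overlap. With all arrays kept, 6941 of 11367 had groups without overlap. Smaller groups fail to overlap more easily, so the counts with an array left out cannot be set directly against 6941. The deposited table could not be tried, and normexp ran on the median spot signal, the raw signal the files give.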
